A study of Sus scrofa with 30 samples.

Results

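The genes described here are 10 that write, copy or remove DNA methylation or belong to repressor complexes linked to it: DNMT1, UHRF1, DNMT3A, DNMT3B, TET1, TET2, TET3, TDG, MBD3 and TRIM28. They were chosen by name and function, with earlier results of these data known, and their symbols were matched to the NCBI gene IDs of the count table. All 10 were found among the 13103 genes listed for the whole set of embryos, and in the table of each day. The material was 30 single pig embryos sequenced by stranded mRNA-seq, 5 of each sex from Day 8, Day 10 and Day 12 of pregnancy. The dams were untreated apart from cycle control: crossbred German Landrace × Pietrain gilts, synchronized with Altrenogest, PMSG and human chorionic gonadotropin and inseminated with semen of a single boar. 4 gilts were slaughtered per day, and each embryo was flushed from the uterus and frozen whole, embryonic disc and extraembryonic tissue together. The paper reports at least a female and a male from the same sow at each stage. The labels do not say which embryos share a dam, so the sex tests are unpaired. The p-values therefore treat littermates as independent, and the day of pregnancy cannot be told apart from the gilts that supplied it.

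DNA methylation in mammals is a methyl group on cytosine, mostly at CG dinucleotides. DNMT3A and DNMT3B place new methyl groups, while DNMT1, guided to half-methylated DNA by UHRF1, copies the existing pattern onto the new strand after replication. TET enzymes oxidize methylcytosine, and the glycosylase TDG excises the further oxidized bases so that base excision repair can put back an unmodified cytosine. MBD3 is a subunit of the NuRD remodelling and deacetylase complex, and TRIM28 is the corepressor that zinc finger proteins such as ZFP57 recruit to imprinted regions and retroelements. The early mammalian embryo first loses most of its methylation and then regains it in a lineage-dependent way, with lower levels in extraembryonic tissue than in the embryo proper. Transcript levels are reported here, and DNA methylation itself was not measured.

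Library totals ran from 6068212 to 34002508 counts, and the lowest count of any of the 10 genes in an embryo was 55, for TET3. Levels are given as CPM, counts divided by the library total and put on a common scale, with TMM factors that correct for differences in library composition. CPM is not divided by transcript length, so levels are compared between days and sexes for one gene, not between genes. On Day 12, the females that the labels name d12_f_245 and d12_f_271 stood apart over all genes, with mean distances to the other Day 12 embryos of 139 and 120 against 86.6 to 108 in the remaining 8. Embryo d12_f_245 also had the smallest library. On Day 10, female d10_f_454 and male d10_m_453 lay farthest out, at 93.6 and 96.9 against 73.9 to 88.0. Several of the results that these 4 embryos affect, but not all, are given with and without them.

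Transcript levels of tissue markers moved with day. Among epiblast genes, POU5F1 (OCT4) averaged 30.9 ± 5.70 CPM on Day 8, went to 14.4 ± 3.10 on Day 10 and reached 1.72 ± 1.04 by Day 12 (SD, n = 10). NANOG, SOX2, OTX2 and PRDM14 were at or under 3 counts in all 10 Day 12 embryos. ETV4 of the same list was higher on Day 12, 4.05 ± 1.59 CPM against 1.38 ± 0.344 on Day 10. The 7 epiblast markers summed to 134 to 208, 109.6 to 172 and 16.7 to 158 CPM on the 3 days in turn. LIN28A made up most of that sum, and ranged from 9.48 to 151.6 CPM on Day 12. The high Day 12 sums thus rested on this gene. The 8 trophectoderm markers summed to 20567 to 25209, 32817 to 50083 and 9264 to 27723 CPM, with HAND1 and GATA3 higher and KRT8, KRT18 and CDX2 lower on Day 12 than on Day 10 by the test described below. KRT8 and KRT18 made up most of that sum. The 7 hypoblast markers summed to 402 to 706, 312 to 499 and 624.6 to 3260 CPM. APOE made up much of the hypoblast sum, with means of 131, 205 and 854 CPM on the 3 days. GATA6 of the same list went the other way, from 142 to 55.5 and then 44.5 CPM. From Day 8 to Day 12, 4 of the 7 were higher and 1 lower by the same test. The 3 measured of 5 mesoderm and primitive streak markers summed to at most 8.86 CPM in any embryo. Of 8 markers of the maternal uterus, PGR, PTPRC and CD3E were not in the table, and the other 5 summed to at most 26.3 CPM. In whole embryos, fewer cells of a type and less RNA per cell cannot be told apart, and the part of tissue composition in the day differences below was not tested.

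Between days, a gene counted as differentially expressed (DEG) if its FDR was under 0.001 and its log2 fold change was larger than 1 in size, in an edgeR quasi-likelihood fit of all 13103 genes with Benjamini-Hochberg adjustment. From Day 8 to Day 10, 2 of the 10 genes were DEG, against a background of 14.1% of all genes. TET1 was higher, like 9.88% of all genes, and DNMT3A lower, like 4.20%. From Day 10 to Day 12, 4 of the 10 were DEG, against 23.3% of all genes. UHRF1, DNMT3B and TET3 were higher, against 14.9% of all genes, and TET2 was lower, against 8.39%. Over the whole period from Day 8 to Day 12, 4 of the 10 were DEG, all higher, against 32.5% of all genes in either direction, 22.0% higher and 10.4% lower. They were UHRF1, DNMT3B, TET1 and TET3. DNMT1, TDG, MBD3 and TRIM28 were DEG in none of the 3 comparisons. At an FDR under 0.001 with any fold change, 5, 5 and 8 of the 10 genes passed, against 31.3%, 38.0% and 54.7% of all genes. The embryos of the 2 days did not overlap for 3, 4 and 4 of the 10 genes, against 22.0%, 16.6% and 31.7% of all genes. The median log2 fold change of the 10 genes was -0.01, 0.35 and -0.33 in the 3 comparisons, and that of all genes 0.03, 0.04 and 0.09. These shares are read as a description of a small list, and with 10 genes each gene makes up a large part of them.

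**Figure D1:**
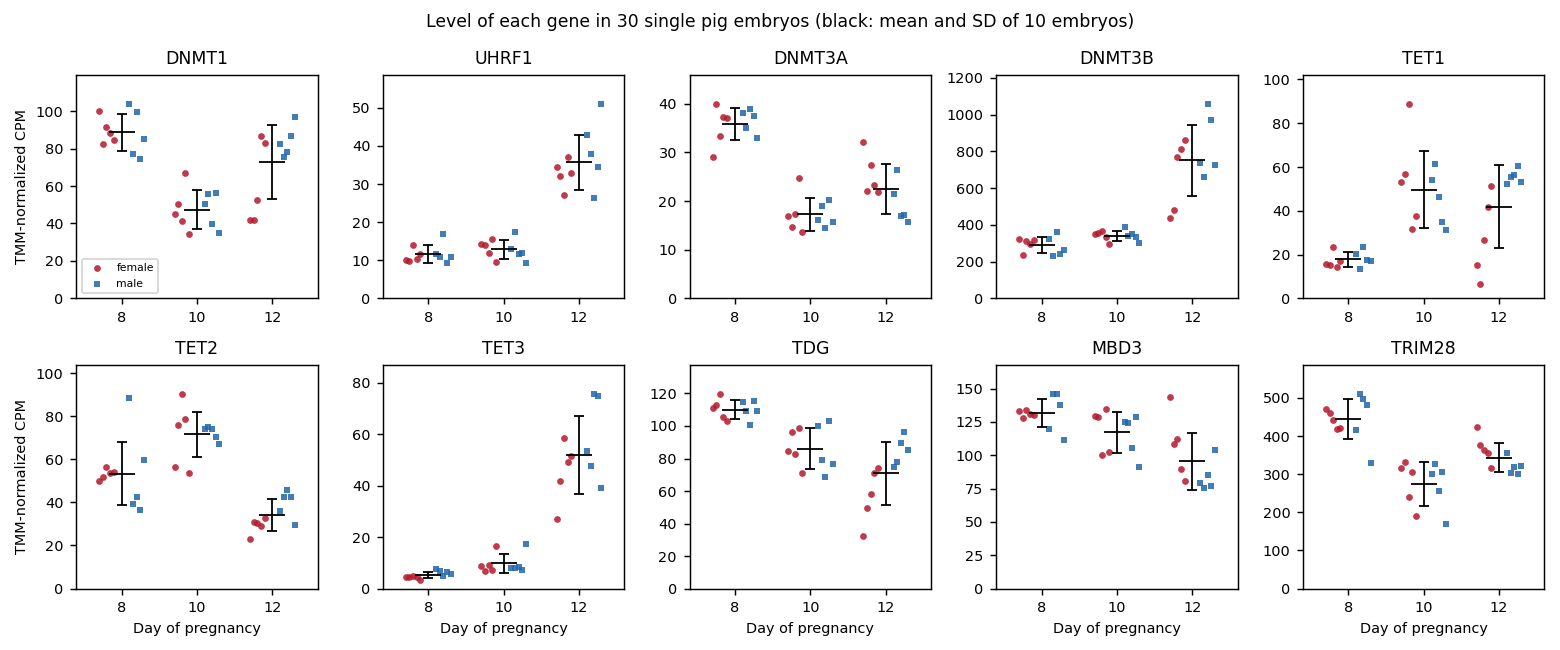
TMM-normalized CPM (vertical axes, each from 0) of the 10 genes in 30 embryos by day of pregnancy (horizontal axes), with red circles for females, blue squares for males, and black bars for the mean and SD of the 10 embryos of a day. TET3 rises to 27.2 to 75.7 CPM on Day 12, clear of the earlier days, DNMT1 is lowest on Day 10, and TET1 spreads from 6.54 to 60.3 CPM among Day 12 embryos.

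The 2 components of maintenance methylation followed different courses. DNMT1, the enzyme that copies methylation to the new strand, lies on chromosome 2 at 68981564 to 69040364 of Sscrofa11.1. It ranged from 74.5 to 104 CPM on Day 8 (median 86.6), from 34.4 to 66.8 on Day 10 (median 47.6) and from 42.0 to 97.0 on Day 12 (median 80.4). Every Day 10 embryo was below every Day 8 embryo, while Day 12 overlapped both earlier days. The mean was 88.7 ± 9.98, 47.4 ± 10.5 and 72.6 ± 19.7 CPM on the 3 days (SD, n = 10). DNMT1 was 1.87-fold lower on Day 10 than on Day 8 (log2 difference -0.90, SE 0.14, adjusted p = 2.92e-06), just short of the fold limit for a DEG. When libraries were scaled by total count alone, the change was -1.07 and DNMT1 became a DEG. It was 1.53-fold higher on Day 12 than on Day 10 (0.62, SE 0.14, adjusted p = 0.000343). Without d10_f_454 and d10_m_453 this difference was 0.52 and missed the limit of 0.001 (adjusted p = 0.00224), and without d12_f_245 and d12_f_271 it was 0.76 (adjusted p = 1.55e-06). Female embryos alone gave 0.29 (adjusted p = 0.249) and male embryos alone 0.83 (adjusted p = 0.000204). Between Day 8 and Day 12 the difference of -0.29 (SE 0.14) did not pass (adjusted p = 0.0637). The low Day 12 values belonged to female embryos d12_f_245, d12_f_271 and d12_f_289, at 42.0, 42.1 and 52.5 CPM, while the other 7 embryos were between 75.7 and 97.0.

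UHRF1, which brings DNMT1 to half-methylated sites, lies on the same chromosome at 73898061 to 73937727. It ranged from 9.23 to 17.0 CPM on Day 8 (median 10.97), from 9.25 to 17.3 on Day 10 (median 12.4) and from 26.5 to 51.1 on Day 12 (median 34.5). The first 2 days covered the same range, and all 10 Day 12 embryos were above all earlier ones. From Day 8 to Day 10 the log2 difference was 0.15 (SE 0.13, adjusted p = 0.320), and its sign turned, to -0.023, with scaling by total count alone. UHRF1 then rose 2.78-fold from Day 10 to Day 12 (log2 1.47, SE 0.13, adjusted p = 1.99e-11). The ratio of UHRF1 to DNMT1 CPM within an embryo, which does not depend on library scaling, lay between 0.102 and 0.171 on Day 8, between 0.210 and 0.318 on Day 10 and between 0.338 and 0.824 on Day 12. No 2 days overlapped. The mean log2 ratio increased by 1.07 in the first interval and by 0.88 in the second (2-sided permutation test, Benjamini-Hochberg over 15 ratio tests, adjusted p = 7.50e-05 for each). Females d12_f_245 and d12_f_271 had the 2 highest Day 12 ratios, and the second step was 0.71 without them (permutation adjusted p = 6.86e-05). The absolute ratio is set in part by transcript length, and only its change between days is read.

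Proliferation markers are given beside UHRF1. Of the 12 genes on that list, which holds replication and mitosis genes such as MKI67, TOP2A and the MCM helicase subunits, none was DEG in any of the 3 comparisons. Their summed level lay between 1938 and 2181 CPM on Day 8, between 1173 and 1919 on Day 10 and between 1148 and 1905 on Day 12. Every Day 8 sum was thus above every later one. The median log2 fold change of the 12 genes was -0.36 from Day 8 to Day 10 and -0.074 from Day 10 to Day 12. The Day 10 minimum was in female d10_f_454, which also had the lowest DNMT1 of that day.

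The de novo enzymes parted from each other between Days 8 and 12. DNMT3A, on chromosome 3 at 113501972 to 113609148, ranged from 29.1 to 40.0 CPM on Day 8 (median 37.2), from 13.6 to 24.7 on Day 10 (median 16.5) and from 15.7 to 32.1 on Day 12 (median 22.0). All Day 10 embryos lay under all Day 8 embryos. DNMT3A fell 2.08-fold from Day 8 to Day 10 (log2 fold change -1.06, SE 0.12, adjusted p = 7.30e-09). The difference of 0.38 (SE 0.12) from Day 10 to Day 12 had an adjusted p of 0.00607, above the limit of 0.001. Day 12 remained below Day 8 by 0.68 on the log2 scale (log2 fold change -0.68, SE 0.12, adjusted p = 4.55e-06), with a fold change under the DEG limit.

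DNMT3B, on chromosome 17 at 36345715 to 36386076, took the other course. It ranged from 232 to 362 CPM on Day 8 (median 303), from 295 to 386 on Day 10 (median 342) and from 435.2 to 1059 on Day 12 (median 754). The first 2 days overlapped, and every Day 12 embryo was higher than every earlier one. From Day 8 to Day 10 the log2 difference was 0.23 (SE 0.12, adjusted p = 0.102). From Day 10 to Day 12 DNMT3B rose 2.21-fold (log2 1.14, SE 0.12, adjusted p = 1.29e-09). The lowest Day 12 values, 435.2 and 483 CPM, were those of females d12_f_245 and d12_f_271, and without them the log2 change was 1.28. In a fit of female embryos alone it was 0.91 (adjusted p = 0.000318), under the fold limit.

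Within an embryo, the ratio of DNMT3B to DNMT3A CPM lay between 5.91 and 11.09 on Day 8, between 13.5 and 24.5 on Day 10 and between 13.5 and 62.8 on Day 12. Days 8 and 10 did not overlap, and neither did Days 8 and 12. The mean log2 ratio increased by 1.31 from Day 8 to Day 10 (permutation adjusted p = 7.50e-05) and by 0.73 from Day 10 to Day 12 (permutation adjusted p = 0.00538). The first step came with the lower DNMT3A and the later one with the higher DNMT3B. Female embryos alone gave 0.38 for the later step (exact permutation test, adjusted p = 0.238). Females d12_f_245 and d12_f_271 had the 2 lowest Day 12 ratios. Without them the later step was 0.97 (permutation adjusted p = 6.86e-05). Without d10_f_454 and d10_m_453 it was 0.74 (permutation adjusted p = 0.0119). Female d12_f_245 had the lowest Day 12 ratio and male d12_m_276 the highest.

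**Figure D2:**
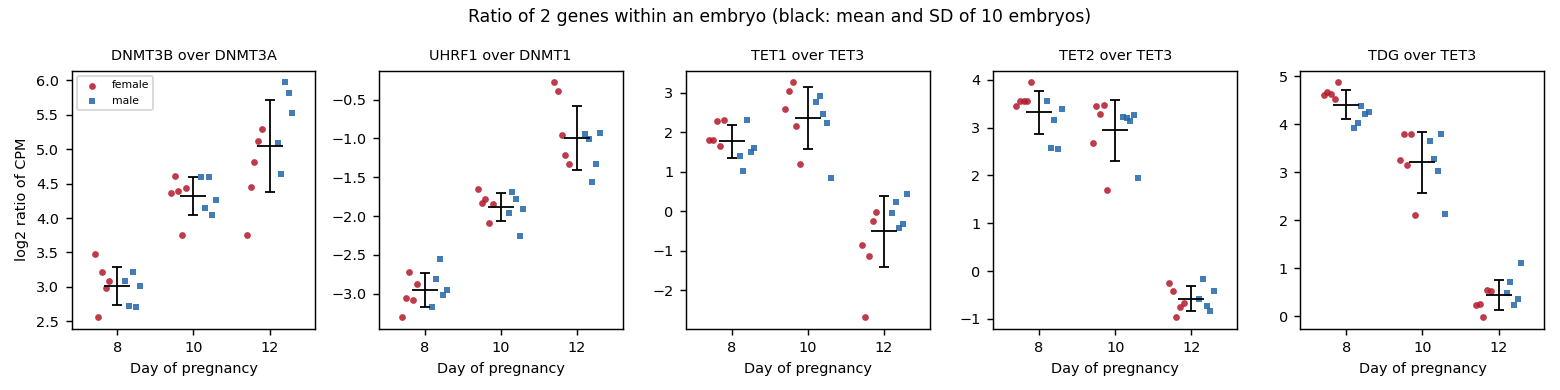
log2 ratio of the CPM of 2 genes within each embryo (vertical axes) by day of pregnancy (horizontal axes), with red circles for females, blue squares for males and black bars for the mean and SD of 10 embryos. UHRF1 over DNMT1 increases in both intervals, and all 3 ratios over TET3 are lower on Day 12 than in every earlier embryo.

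The 3 TET genes had 3 different time courses. TET1, on chromosome 14 at 71675671 to 71812732, encodes the methylcytosine oxidase best known from pluripotent cells. It ranged from 13.4 to 23.5 CPM on Day 8 (median 17.2), from 31.3 to 88.9 on Day 10 (median 49.6) and from 6.54 to 60.3 on Day 12 (median 51.7). Day 10 was above Day 8 without overlap, whereas Day 12 held both the lowest value of all 30 embryos and values like those of Day 10. TET1 rose 2.78-fold from Day 8 to Day 10 (log2 1.47, SE 0.26, adjusted p = 1.96e-05). Female embryos alone gave a change of 1.63 in this interval with an adjusted p of 0.00602, which missed the limit. In the second interval the log2 difference was -0.24 (SE 0.25, adjusted p = 0.432).

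The sign of that last difference was not stable. Females d12_f_245 and d12_f_271 had 15.0 and 6.54 CPM of TET1 on Day 12, against 26.6 to 60.3 in the other 8. Without them the difference was 0.0020 (adjusted p = 0.993), and in male embryos alone it was 0.29 (adjusted p = 0.195). Over the whole period TET1 was 2.35-fold higher on Day 12 than on Day 8 (log2 1.24, SE 0.26, adjusted p = 9.48e-05). That change was 1.48 without the 2 females, and 0.62 in a fit of female embryos alone, where it was not called (adjusted p = 0.188). Of the 7 epiblast markers, 3 were DEG lower and none higher from Day 8 to Day 10, and 6 were lower and 1, ETV4, higher from Day 10 to Day 12. Their part in the TET1 values was not tested.

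TET2, a TET oxidase without the CXXC DNA-binding domain of the other family members, lies on chromosome 8 at 116413253 to 116546976. It ranged from 36.6 to 88.7 CPM on Day 8 (median 52.7), from 53.7 to 90.4 on Day 10 (median 74.0) and from 23.00 to 45.8 on Day 12 (median 31.9). The Day 8 maximum was male d08_m_103, the embryo of that day farthest from the rest over all genes, and the next value was 59.8. The difference of 0.43 (SE 0.13) from Day 8 to Day 10 had an adjusted p of 0.00708 and was not called. From Day 10 to Day 12 TET2 fell 2.09-fold (log2 fold change -1.06, SE 0.13, adjusted p = 4.21e-08), with no overlap. This call lay close to the fold limit: the change was -0.99 without females d12_f_245 and d12_f_271 and -0.88 both in male embryos alone and with scaling by total count, and TET2 was then no DEG.

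TET3, known as the TET oxidase of the zygote, lies on chromosome 3 at 68918896 to 69020406. It had the largest change of the 10 genes. It ranged from 3.50 to 7.57 CPM on Day 8 (median 4.79), from 6.88 to 17.4 on Day 10 (median 8.27) and from 27.2 to 75.7 on Day 12 (median 50.4). All Day 12 embryos were above all others. The increase from Day 8 to Day 10 was 1.84-fold (log2 0.88, SE 0.19, adjusted p = 0.000225), short of the DEG fold limit. From Day 10 to Day 12 TET3 rose 5.32-fold (log2 2.41, SE 0.19, adjusted p = 2.91e-12), and over the whole period 9.80-fold (log2 3.29, SE 0.20, adjusted p = 3.69e-15).

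Within Day 10, TET3 marked the embryos that stood apart. Female d10_f_454 had 16.5 CPM and male d10_m_453 had 17.4, while the other 8 were between 6.88 and 9.26. Of the 8 trophectoderm markers, HAND1, ELF5 and TFAP2C were higher in both embryos than in the other 8, and KRT18 and GATA2 were lower. The list summed to 36694 and 32817 CPM in them, against 37641 to 50083. Of the 12 proliferation markers, 9 were lower in both than in the other 8 and none higher, with sums of 1173 and 1237 CPM against 1411 to 1919. The part of these markers in the TET3 values was not tested. These embryos also had the lowest DNMT1, UHRF1, TRIM28 and DNMT3B of that day. Without them, the TET3 change from Day 8 to Day 10 was 0.59 (adjusted p = 0.00268) and that from Day 10 to Day 12 was 2.70 (adjusted p = 3.63e-14).

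The balance among TET transcripts changed with these courses. The ratio of TET1 to TET3 CPM had medians of 3.32, 5.78 and 0.826 on Days 8, 10 and 12, and that of TET2 to TET3 of 11.3, 9.28 and 0.651. From Day 8 to Day 10 neither change passed: the mean log2 ratio moved by 0.59 for TET1 (permutation adjusted p = 0.0546) and by -0.38 for TET2 (permutation adjusted p = 0.143). The TET1 value was 0.92 without d10_f_454 and d10_m_453 (permutation adjusted p = 0.000527), and the TET2 value -0.099 (permutation adjusted p = 0.580). TET2 gave -0.67 in female embryos alone (exact permutation test, adjusted p = 0.0275). In the second interval the ratios fell by 2.84 and 3.50 on the log2 scale (permutation adjusted p = 7.50e-05 for both), and no Day 12 embryo overlapped an earlier one.

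TDG, the glycosylase that acts after the TET enzymes, lies on chromosome 5 at 80473233 to 80492295. It ranged from 100.3 to 119.7 CPM on Day 8 (median 110.2), from 68.4 to 102.9 on Day 10 (median 83.7) and from 32.1 to 96.1 on Day 12 (median 74.4). Its mean was lower at each step, but the steps of -0.36 (adjusted p = 0.0158) and -0.28 (adjusted p = 0.0563) were not called. Day 12 was 1.55-fold lower than Day 8 without overlap (log2 fold change -0.63, SE 0.13, adjusted p = 4.19e-05), under the DEG fold limit. Females d12_f_245 and d12_f_271 had the lowest Day 12 values, 32.1 and 49.6 CPM, and without them the change was -0.49 (adjusted p = 9.53e-06). Female embryos alone gave -1.03 over this period (adjusted p = 5.70e-05), which was called. TDG on Day 8 had the smallest spread of any of the 10 genes, with a coefficient of variation of 5.44%. The ratio of TDG to TET3 CPM had medians of 21.96, 9.65 and 1.34 on the 3 days. Its mean log2 value fell by 1.20 and then by 2.75 (permutation adjusted p = 7.50e-05 for both), with no overlap in either interval. The changes were -0.93 and -3.02 without d10_f_454 and d10_m_453 (permutation adjusted p = 7.50e-05 for both).

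MBD3, on chromosome 2 at 76913880 to 76923435, had no DEG call. It ranged from 111.3 to 146 CPM on Day 8 (median 132), from 91.5 to 135 on Day 10 (median 125) and from 75.1 to 144 on Day 12 (median 87.3). The days overlapped throughout. Day 12 was below Day 8 by a log2 fold change of -0.47 (SE 0.10, adjusted p = 0.00012), 1.38-fold. The highest Day 12 value was that of female d12_f_245, and without it and d12_f_271 the change was -0.59 (adjusted p = 5.14e-07).

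TRIM28, on chromosome 6 at 63094382 to 63101532, shared the Day 10 low point of DNMT1. It ranged from 331 to 511 CPM on Day 8 (median 450), from 168 to 332 on Day 10 (median 303) and from 302 to 423 on Day 12 (median 338). The Day 8 minimum, male d08_m_136, overlapped Day 10, and the next Day 8 value was 415. TRIM28 was 1.62-fold lower on Day 10 than on Day 8 (log2 difference -0.70, SE 0.11, adjusted p = 2.03e-06). It was higher by 0.33 (SE 0.11, adjusted p = 0.00883) on Day 12 than on Day 10, which missed the limit. Without d10_f_454 and d10_m_453, whose 190 and 168 CPM were the lowest, the changes were -0.58 (adjusted p = 2.18e-06) and 0.20 (adjusted p = 0.038). Females d12_f_245 and d12_f_271 had the highest Day 12 values, and the second change was 0.26 without them (edgeR adjusted p = 0.0332).

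**Figure D3:**
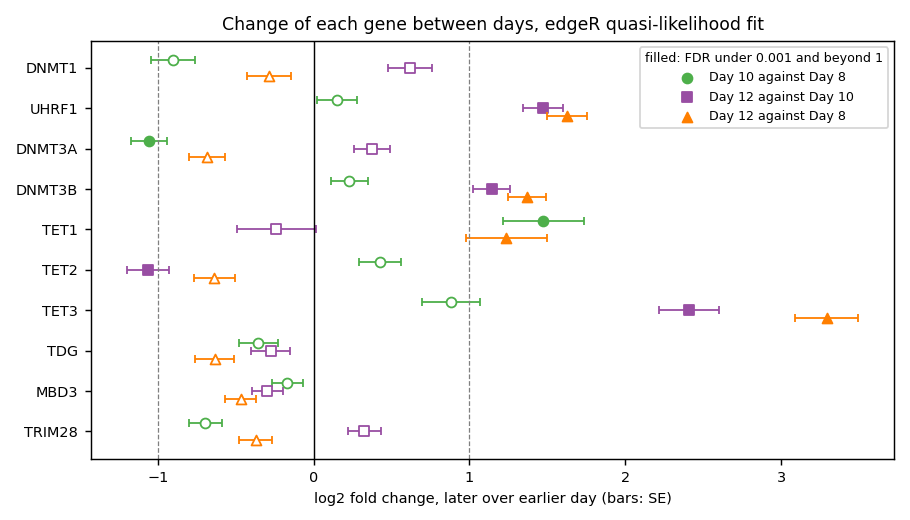
log2 fold change of each of the 10 genes (rows), later over earlier day, for the 3 comparisons of days, with SE bars from the edgeR quasi-likelihood fit of 30 embryos and dashed lines at -1 and 1. Filled points are DEG: DNMT3A and TET1 for Day 10 against Day 8, UHRF1, DNMT3B, TET2 and TET3 for Day 12 against Day 10, and UHRF1, DNMT3B, TET1 and TET3 for Day 12 against Day 8.

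Across the 10 embryos of a single day, 3 pairs of these genes were examined on the log2 CPM scale, giving 9 relations. DNMT1 with UHRF1 on Day 10 had a Pearson r of 0.82 (permutation p = 0.00383, adjusted p = 0.0345) and a Spearman rho of 0.75 (permutation p = 0.0172, adjusted p = 0.155). Without the 2 embryos farthest from the median of DNMT1, d10_f_433 and d10_f_454, r was 0.73. Embryos d10_f_454 and d10_m_453 had the 2 lowest values of both genes that day. The relation without that pair was not tested. On Days 8 and 12 r was 0.52 and 0.46 (permutation p = 0.121 and 0.181). DNMT3A with DNMT3B had r of -0.63 on Day 12 (permutation p = 0.0483, adjusted p = 0.217), and rho was -0.52 (permutation p = 0.132). TET1 with TET3 had r of 0.01, -0.32 and 0.55 on the 3 days (permutation p = 0.982, 0.344 and 0.108), and the Day 12 value was 0.09 without the 2 farthest embryos.

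The sexes were compared within each day, in that day's own table, at an FDR under 0.05. None of the 10 genes was called on Day 8, 10 or 12 by edgeR's quasi-likelihood test, edgeR's robust GLM or DESeq2, against a background of 0.658%, 0.223% and 0.123% of genes in the quasi-likelihood test. At an unadjusted p under 0.05, 1, 0 and 3 of the genes passed, against 4.59%, 2.36% and 22.7% of all genes. The females and males did not overlap for 1, 0 and 2 of the genes, against 1.59%, 0.848% and 4.62% of all genes. A sex difference that itself changed between days was found for none of the 10 genes in edgeR's interaction test, and for 0 of 13103 genes in each of the 3 intervals, with 100, 2473 and 2863 genes at an unadjusted p under 0.05. Among the 10 genes, that test gave an unadjusted p under 0.05 for TDG (0.0107) and TET1 (0.0157) for Day 12 minus Day 10. For Day 12 minus Day 8 it did so for TDG (0.0125). It used 1 estimate of the spread shared by all days. On Day 10 the log2 differences, female over male, lay between -0.03 for TET3 and 0.23 for TET1.

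On Day 8, TET3 was 4.54 ± 0.521 CPM in females and 6.44 ± 1.08 in males (SD, n = 5). No female overlapped a male, and the log2 difference was -0.50 (SE 0.16, edgeR adjusted p = 0.454). The other 9 genes differed by -0.09 to 0.05.

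On Day 12 the differences spread more widely, from -0.95 for TET1 to 0.41 for DNMT3A. TET1 in the 5 females was 15.0, 6.54, 26.6, 41.5 and 51.2 CPM in the table of all embryos, and in the 5 males 52.2, 55.6, 56.6, 60.3 and 53.0. All females were below all males, and the males were within a narrow range. In the Day 12 table the means were 29.6 ± 19.0 and 57.7 ± 2.89 CPM (SD, n = 5), with a log2 difference of -0.95 (SE 0.41, edgeR adjusted p = 0.209). TDG was 60.3 ± 16.9 in females and 87.9 ± 7.93 in males, also without overlap (log2 difference -0.54, SE 0.19, edgeR adjusted p = 0.198, n = 5). TET2 was 31.1 ± 3.55 and 40.6 ± 6.58 CPM (log2 difference -0.39, SE 0.15, edgeR adjusted p = 0.198, n = 5), with overlap.

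These Day 12 differences rested in part on females d12_f_245 and d12_f_271. Without them the log2 differences were -0.48 for TET1, -0.31 for TDG and -0.34 for TET2 (edgeR adjusted p = 0.627 for each). A single fit of all 30 embryos in 6 groups of sex and day, with 1 estimate of the spread shared by all days, called TET1 (-0.97, edgeR adjusted p = 0.0401) and TDG (-0.56, edgeR adjusted p = 0.0154) on Day 12. That fit called 2658 genes between the sexes on Day 12, against 15 in the Day 12 table.

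**Figure D4:**
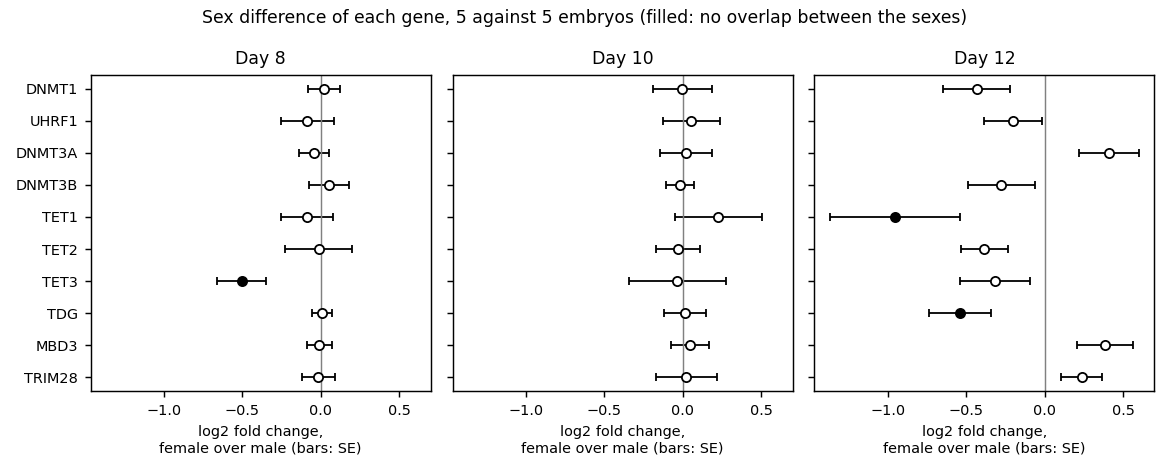
log2 fold change, female over male, of each of the 10 genes (rows) on Days 8, 10 and 12, with SE bars, 5 embryos of each sex. Filled points mark genes whose females and males did not overlap, TET3 on Day 8 and TET1 and TDG on Day 12, and none of the points passed an FDR of 0.05. Over all genes, 1.59%, 0.848% and 4.62% did not overlap on the 3 days.

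Further genes of the pathway were taken from 6 lists with 89 measured genes. Of these, 13 (14.6%) were DEG from Day 8 to Day 10 (7 higher, 6 lower), 11 (12.4%) from Day 10 to Day 12 (6 higher, 5 lower) and 26 (29.2%) from Day 8 to Day 12 (13 higher, 13 lower). Over all genes the shares were 14.1%, 23.3% and 32.5%.

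Among 11 measured genes for maintenance and writing of methylation, 1 was called in the first interval and 2 in the second. DPPA3 (Stella), which limits the access of UHRF1 to chromatin, fell by 1.89 on the log2 scale from Day 8 to Day 10, from 5.22 ± 1.17 to 1.40 ± 0.263 CPM. CDCA7, the partner of the remodeller HELLS, rose by 1.73 from Day 10 to Day 12, from 7.75 ± 2.80 to 25.6 ± 7.44 CPM, and its paralog CDCA7L by 1.40. HELLS itself fell from 76.3 ± 6.60 CPM on Day 8 to 34.5 ± 11.5 on Day 12 (log2 fold change -1.14, adjusted p = 5.61e-08). DNMT3L, the cofactor of the de novo enzymes, is not in the table and was not analysed here.

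The 17 measured genes of one-carbon metabolism and methyl donor supply included 3 DEG in the first interval and 3 in the second. The folate carrier SLC19A1 rose from 8.44 ± 1.39 to 26.3 ± 5.03 CPM from Day 8 to Day 10 (log2 1.64). The mitochondrial folate enzyme MTHFD1L fell in both intervals, from 781 ± 110 to 233 ± 118 and then to 43.1 ± 23.3 CPM. Its mitochondrial partner MTHFD2 fell from 1064 ± 105.4 to 426 ± 108 CPM in the second interval (log2 fold change -1.32).

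The 25 genes of oxidation and base excision included 4 DEG in the first interval and 3 in the second. GADD45A, a stress-induced protein linked to active demethylation, rose from 11.14 ± 2.14 to 37.5 ± 21.4 CPM by Day 10 (log2 1.75). IDH1, which makes the 2-oxoglutarate that TET enzymes consume, rose from 301 ± 14.9 to 758 ± 177 CPM (log2 1.33), and the glycosylase NEIL3 fell from 12.3 ± 1.53 to 4.67 ± 1.48 CPM. In the second interval GADD45B rose from 0.498 ± 0.216 to 3.42 ± 2.26 CPM (log2 2.75). IDH3G, on the X chromosome, was the only gene of these lists called between the sexes: on Day 8 it was 87.3 ± 11.3 CPM in females and 59.2 ± 6.50 in males (log2 0.56, edgeR adjusted p = 0.0281, n = 5).

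Of 8 genes listed as methyl-CpG readers or their relatives, ZBTB38 and ZBTB4 rose and ZBTB33 (Kaiso) fell from Day 8 to Day 10. The log2 changes were 1.89, 1.48 and -1.03. In the second interval ZBTB4 rose again by 2.14 and ZBTB33 fell again, from 70.5 ± 21.7 to 25.1 ± 5.61 CPM. Of 11 NuRD subunits, the remodeller CHD3 rose from 26.5 ± 7.25 to 65.9 ± 19.1 CPM and MTA3 fell from 46.1 ± 4.73 to 18.9 ± 2.49 CPM by Day 10, and none was called from Day 10 to Day 12. Of 17 partners of TRIM28 and enzymes of H3K9 methylation, none was called in the first interval and 1 in the second. That gene was ZFP57, the zinc finger protein that brings TRIM28 to methylated imprinting control regions. It averaged 106 ± 10.8 CPM on Day 8, then 66.8 ± 10.8 and then 18.3 ± 7.62 by Day 12, with no overlap between neighbouring days (Day 10 to Day 12 log2 fold change -1.86, adjusted p = 1.84e-09), while TRIM28 itself was DEG in no comparison.

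**Figure D5:**
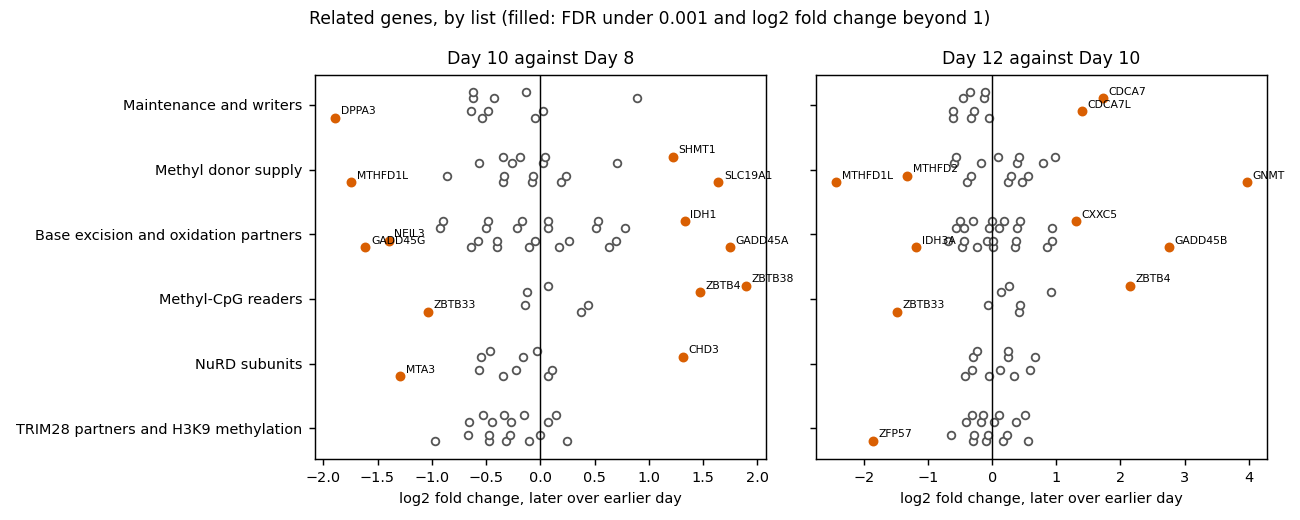
log2 fold change, later over earlier day (horizontal axes), of 89 related genes in 6 lists (rows) for Day 10 against Day 8 and Day 12 against Day 10, edgeR quasi-likelihood fit. Filled, named points are DEG, 13 in the first interval and 11 in the second, and points within a row are staggered only for legibility.

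Genes whose levels followed those of the 6 enzymes called in either interval were ranked by the Pearson correlation of log2 CPM over 30 embryos, among 9552 genes with a mean of at least 5 CPM. These correlations describe shared time courses, since the embryos fall into 3 days. For TET3 the nearest were SLC41A1, SLC26A9 and ATP10B (r = 0.98 each), at most 1.11 CPM on Day 8 and between 81.5 and 275.99 CPM on Day 12 on average. For DNMT3B they were ABHD2, STK26 and LOC110259374 (r = 0.96 each), and for UHRF1 CEP55, THY1 and RTN4RL1 (r = 0.94 each). DNMT3A was followed most closely by ATN1 (r = 0.94), SDC4 and BAIAP2L1 (r = 0.90 each). TET2 was nearest to ZC3H11A (r = 0.94), FCHO2 (0.93) and BIRC3 (0.91), and TET1 to ALDH6A1 (r = 0.90), ZNF608 and FRMD4B (0.88 each).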

How the data were processed

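The deposited files hold raw read counts per NCBI gene ID for all 30 embryos and for each day. The authors trimmed reads with Trim Galore in Galaxy, mapped them to Sscrofa11.1 and filtered genes by CPM before depositing the counts. The aligner, the counter and the value of the filter are not given in the sources used here. Gene symbols and gene positions came from a RefSeq gene table of Sscrofa11.1. Counts were scaled by TMM and tested with edgeR 4.0.16 (robust quasi-likelihood F test, R 4.3.3, Benjamini-Hochberg), in a fit of 3 day groups for days and in each day's own table for sexes. SE is the size of the log2 fold change over the square root of F. Ratios and relations used log2 CPM with a prior count of 2 and permutation tests of 100000 resamples (exact for 5 against 5, scipy 1.17.1). Alternatives included edgeR's robust GLM, DESeq2 1.42.0, other scalings, filters and thresholds. The scripts were tested on simulated data. The 10 genes, the related lists and the markers were chosen with earlier results of these data known. From each related list at most 4 called genes were named, by size of change with non-overlapping genes first, and the few others named were chosen after their values were seen. FOLR1 was left out because 2 IDs carry the symbol, MAT1A and BHMT were not analysed here, and 1 further gene of the methyl donor list is not reported here. Embryos were selected by the study for high RNA quality. The p-values set differences against the spread between embryos, not between litters. With 10 embryos from 4 gilts per day, some of them were littermates.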

Additional observations from a re-analysis of the deposited data

Results flagged for a closer look

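Each gene was examined for a single embryo far from the others within a day and within each sex of a day, 90 groups in all. Chance flags about 5% of such groups, and 5 were found, so their number is near what chance gives. TET1 on Day 10 had its highest value in d10_f_336, 88.9 CPM, with the next embryo at 61.6. TET2 on Day 8 had its highest value in d08_m_103, 88.7 CPM, with the next at 59.8. TET3 on Day 10 stood out in 1 embryo of each sex: d10_f_454 had 16.5 CPM with the next female at 9.26, and d10_m_453 had 17.4 CPM with the next male at 8.36. TRIM28 on Day 8 had its lowest value in d08_m_136, 331 CPM, with the next at 415.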

How the results depend on the processing

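No paired analysis was possible because every embryo carries a number of its own and the labels tie no embryo to a dam. Leaving out each of the 30 embryos in turn changed neither the number of the 10 genes called nor the side of the threshold of any of their log2 fold changes between days. Of 400 such log2 fold changes under 14 settings, 369 kept direction and side, 12 lost and 16 gained the call, and 3 turned sign. The sign turned for UHRF1 from Day 8 to Day 10 with scaling by total count (-0.023), and for TET1 from Day 10 to Day 12 in male embryos alone (0.29) and without females d12_f_245 and d12_f_271 (0.0020). Scaling by total count also moved the median of all genes from 0.03, 0.04 and 0.09 to -0.15, 0.24 and 0.10 in the 3 comparisons. Testing against the fold limit itself (log2 of 1) called 0, 2 and 2 of the 10 genes in the 3 comparisons, and an FDR under 0.05 with any fold change called 7, 8 and 9. Female embryos alone left 1 gene called from Day 8 to Day 10, DNMT3A. The fit of 6 groups called 2 of the genes between the sexes on Day 12. Of the related genes, testing against that limit called 0, 6 and 14, an FDR under 0.05 called 55, 55 and 71, and male embryos alone gave 7 from Day 8 to Day 10 and 16 from Day 8 to Day 12. The ratio of TET1 to TET3 from Day 8 to Day 10 passed with a prior count of 5 (0.60, permutation adjusted p = 0.0499) and without d10_f_454 and d10_m_453 (0.92), and that of TET2 to TET3 passed in female embryos alone (-0.67). The ratio of DNMT3B to DNMT3A from Day 10 to Day 12 did not pass in female embryos alone (0.38). The settings differ in the embryos used, the scaling, the fit or the threshold, and the cause of these shifts was not tested. The fits without d12_f_245 and d12_f_271, without d10_f_454 and d10_m_453, and those leaving out 1 embryo between days were chosen after seeing the data.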
